A study of Mus musculus with 14 samples.

Results

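The NF-kappaB family was read here as 5 subunit genes (Nfkb1, Nfkb2, Rel, Rela and Relb) and 5 genes of the IkappaB family (Nfkbia, Nfkbib, Nfkbie, Nfkbid and Nfkbiz). The members were all probe sets of the deposited table that the platform annotation lists with 1 of these 10 genes. That gave 18 probe sets for 9 genes, of 45101 probe sets in the table. No probe set was listed for Nfkb1 in the annotation used here, so Nfkb1 was not analysed here. No probe set of a member was listed with a second gene.

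RNA of mouse Th1 and Th2 cells, helper T cells known for interferon gamma and for interleukin 4, was hybridised to Affymetrix arrays. The series inhibited Trpm4, an ion channel opened by intracellular calcium, with siRNA or with a dominant negative (DN) form, and asked what that does to expression in either cell type. In each cell type there was 1 array for DN Trpm4 retrovirus and 1 for vector alone at 12 h of stimulation, the same pair at 4 h of stimulation, 1 array for Trpm4 siRNA, 1 for Thy1 siRNA and 1 for cells with no treatment named. All cells had been polarised in culture for 2 weeks. The labels name no strain, sex, age or number of animals, no stimulus, and no time for the siRNA and untreated arrays. With 14 arrays in 14 conditions no condition was repeated. The tests therefore used pairs of arrays matched for all but the factor compared, and the p-values measure only the spread between these arrays. The labels do not say whether arrays of 1 set share a culture, and precision is limited by how few arrays there are.

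NF-kappaB factors are dimers of the subunits, which share a Rel homology region that binds DNA. Rela, Rel and Relb carry a transactivation domain, and the long product of Nfkb2 is processed to the subunit p52. In resting lymphocytes the classical inhibitors encoded by Nfkbia, Nfkbib and Nfkbie hold the dimers in the cytoplasm, until signals from the T cell receptor lead to their phosphorylation and degradation. Nfkbid and Nfkbiz encode nuclear IkappaB proteins, which act on the dimers at their target genes. Transcription of Nfkbia and Nfkb2 is known to be induced by NF-kappaB itself.

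Of the member genes, 7 had promoter windows of 250 bases before to 50 bases after a start site in RefSeq (GRCm38.p6), 11 windows in all. A kappaB element of 3 G, 2 bases of any kind, 3 T and 2 C, searched on both strands, was found in 5 of these windows, in Nfkbia, Rel and Nfkb2, and in 1.63% of all 32851 windows (535). A match is a description of letters and not a bound site. The windows of Nfkbib, Nfkbid, Nfkbie and Rela held no match. The 250 bases before the start are shown for 1 window of each of the 3 genes with a match, in capitals. The windows are chr12:55492648-55492897 on the minus strand for Nfkbia, chr11:23770970-23771219 on the minus strand for Rel and chr19:46304487-46304736 on the plus strand for Nfkb2, each written 5′ to 3′ on the strand of the gene.
Nfkbia: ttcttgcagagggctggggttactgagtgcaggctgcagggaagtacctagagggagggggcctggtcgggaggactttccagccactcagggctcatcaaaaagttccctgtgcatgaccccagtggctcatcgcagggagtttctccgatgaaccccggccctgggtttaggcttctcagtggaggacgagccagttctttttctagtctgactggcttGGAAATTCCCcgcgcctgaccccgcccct
Rel: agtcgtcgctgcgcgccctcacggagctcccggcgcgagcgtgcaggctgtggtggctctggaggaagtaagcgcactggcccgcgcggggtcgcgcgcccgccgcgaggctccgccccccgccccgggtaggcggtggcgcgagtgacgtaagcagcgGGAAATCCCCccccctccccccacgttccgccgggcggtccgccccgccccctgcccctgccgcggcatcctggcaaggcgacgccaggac
Nfkb2: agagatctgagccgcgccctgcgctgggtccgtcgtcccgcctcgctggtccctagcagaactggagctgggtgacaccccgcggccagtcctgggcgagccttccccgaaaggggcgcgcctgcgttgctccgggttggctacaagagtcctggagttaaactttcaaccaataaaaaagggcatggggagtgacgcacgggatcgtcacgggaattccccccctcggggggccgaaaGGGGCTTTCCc
The match begins 29 bases before the start in Nfkbia, 91 before in Rel and 11 before in Nfkb2. In Nfkbia and Rel the element runs on the opposite strand, so the capitals show its reverse complement. The other windows of Nfkb2 share another match, GGGACTTTCC.

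Levels are given as quantile-normalised signal, an intensity in arbitrary units, and differences on the scale of log2(signal + 16). Signals of different probe sets cannot be ranked against each other, and in bulk RNA fewer cells of a type and less RNA per cell cannot be told apart. Arrays summed to 7324678 to 10608719 in deposited signal, with medians of 19.88 to 28.3. Control probe sets showed 2 kinds of array. On 6 of them (both times in Th2, 4 h alone in Th1, retrovirus in each case) the 3′ end of Gapdh read higher than its 5′ end by 5.64 to 6.07 (log2), and for Actb this was 3.91 to 4.92. On the remaining 8 arrays Gapdh gave -0.36 to 0.06 and Actb 0.04 to 0.51. At 12 h the kind of array goes with the cell type, and in Th1 cells it goes with the time, so that they cannot be told apart there. On its probe set Trpm4 differed by -0.72 in Th1 and -0.635 in Th2 between Trpm4 siRNA and Thy1 siRNA (log2, single pairs). Between DN Trpm4 and vector it differed by 2.59 in Th1 and -0.21 in Th2 at 12 h, and by 0.60 in Th1 and 0.095 in Th2 at 4 h, and the files do not say whether that probe set reads the DN construct. T cell markers had a probe set for 7 of 8 genes, 6 of them above the array median on all 14 arrays. The summed signal of the Th1 markers was 8209 to 16528 in Th1 arrays and 1059 to 3311 in Th2 arrays, and that of the Th2 markers 413 to 1596 and 3348 to 19258. The summed signal of B cell markers was 112 to 230.2 in Th1 arrays and 120 to 268 in Th2 arrays, and that of macrophage and dendritic cell markers 159 to 321 and 218 to 466. The CD8 T cell and natural killer cell list ran from 710 to 6080 in Th1 arrays and from 70.7 to 836 in Th2 arrays. Its genes differed in direction. Klrd1 was at 539 to 5378 in Th1 arrays and 13.7 to 31.7 in Th2 arrays, while Eomes was at 22.9 to 181.5 and 22.1 to 648. Cd8a was at 12.9 to 359 and 11.5 to 102, and Cd8b1 at 2.51 to 86.7 and 5.86 to 84.3. Ncr1 was above the array median on 1 array. The part of this list in the results was not tested.

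All 18 probe sets lay above the array median on all 14 arrays, so all entered the tests of 29467 probe sets, and the filter removed no member. Where a gene had several probe sets, the one with the highest mean over the arrays was taken as its main probe set. Over the 14 arrays the main probe sets spread most for Nfkb2 (SD 1.44 on the log2 scale) and Nfkbid (SD 1.43), and least for Rela, which encodes the p65 subunit, at 740 to 1846 in signal. Nfkbid ran from 178 to 3949 and Nfkb2 from 47.2 to 974. None of the 18 probe sets separated all 7 Th1 from all 7 Th2 arrays (0.468% of all probe sets did so with Th1 higher and 1.49% with Th1 lower).

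**Figure D1:**
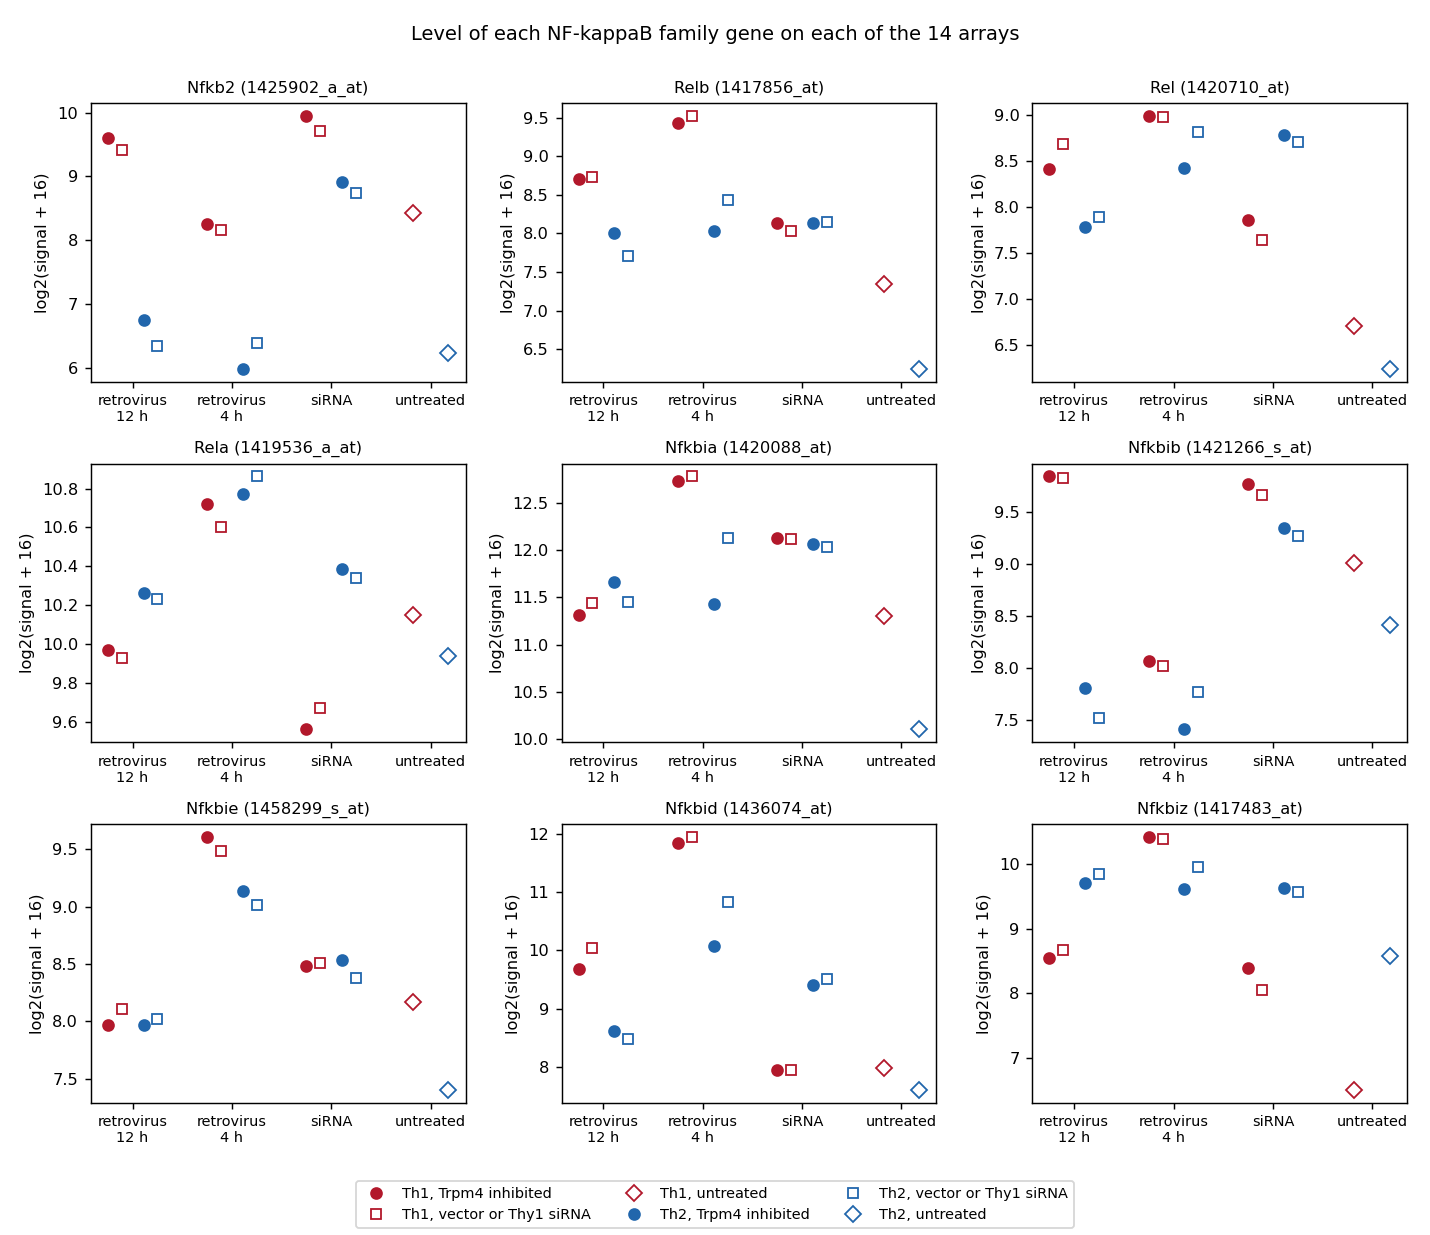
Normalised log2(signal + 16) of the main probe set of each of 9 member genes on each of 14 arrays, by set of arrays, with Th1 in red left of Th2 in blue, filled circles for Trpm4 inhibited, open squares for vector or Thy1 siRNA and diamonds for untreated cells. Each point is 1 array. Nfkbid is highest on the Th1 arrays at 4 h (3680 and 3949 in signal) and lowest on the untreated Th2 array (178).

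The main comparison of the series set each array with Trpm4 inhibited against its own control, DN Trpm4 against vector or Trpm4 siRNA against Thy1 siRNA, in 6 pairs. No member gene passed the test in either cell type or with either method. In limma, 0 of 18 probe sets were called over the 6 pairs, as over all probe sets (0% of 29467, of which 1733 had an unadjusted p under 0.05). The differences of the 18 probe sets ran from -0.20 to 0.16, and the lowest adjusted p among them was 0.846. Nfkbid, a nuclear IkappaB gene, had the most negative mean, at -0.20 ± 0.11 (SE, 6 pairs). The highest mean was that of a second probe set of Nfkbiz (1457404_at), the other nuclear IkappaB gene, at 0.16 ± 0.11.

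The separate estimates also stayed near 0. In Th1 cells the 18 differences ran from -0.16 to 0.23 and in Th2 cells from -0.24 to 0.11, with 0 called in each. For DN Trpm4 over vector (4 pairs) they ran from -0.27 to 0.22, and for Trpm4 siRNA over Thy1 siRNA (2 pairs) from -0.15 to 0.37. Over all probe sets 0% were called in each of these fits (928, 1824, 997 and 3318 of 29467 at an unadjusted p under 0.05). The difference between the effect in Th1 and the effect in Th2 was called for 0 of 18 and 0% of all (1032 at an unadjusted p under 0.05). The control of the siRNA pairs is itself a knockdown, and Thy1 was higher with Trpm4 siRNA than with Thy1 siRNA by 1.335 in Th1 and 2.10 in Th2 (log2, single pairs). The missed threshold does not show that the levels were equal.

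Single pairs moved more than their mean, and these are descriptions with no test. In Th2 cells at 4 h, 15 of 18 probe sets were lower with DN Trpm4 than with vector (50.8% of all), with a median of -0.38 against -0.0053 over all probe sets tested. Nfkbid had a signal of 1069 with DN Trpm4 and 1813 with vector in that pair. Nfkbia, which encodes IkappaBalpha, had 2737 with DN Trpm4 and 4467 with vector on its main probe set. These and a second probe set of Nfkbiz (1448728_a_at, 153 and 283) were the 3 members lower by more than 1.5-fold, a limit that 2.33% of all probe sets passed in that direction. In Th2 cells at 12 h the order was turned, with 14 of 18 probe sets higher with DN Trpm4 and 4 lower (49.3% of all lower). The median was 0.25, against 0.0036 over all probe sets tested, and 0 of 18 passed 1.5-fold (1.91% of all higher, 2.21% lower). Probe sets of 1 gene share their target, so these counts are not of separate genes. The Actb 3′ to 5′ ratio was 4.92 with DN Trpm4 and 3.91 with vector in the Th2 pair at 4 h, and 4.67 and 4.28 in the Th2 pair at 12 h, and its part in these differences was not tested. In the 3 Th1 pairs and the Th2 siRNA pair the medians ran from -0.03 to 0.12, and 1 probe set, 1457404_at of Nfkbiz in the Th1 siRNA pair, passed 1.5-fold (96.2 with Trpm4 siRNA and 52.9 with Thy1 siRNA, 1.77% of all higher).

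**Figure D2:**
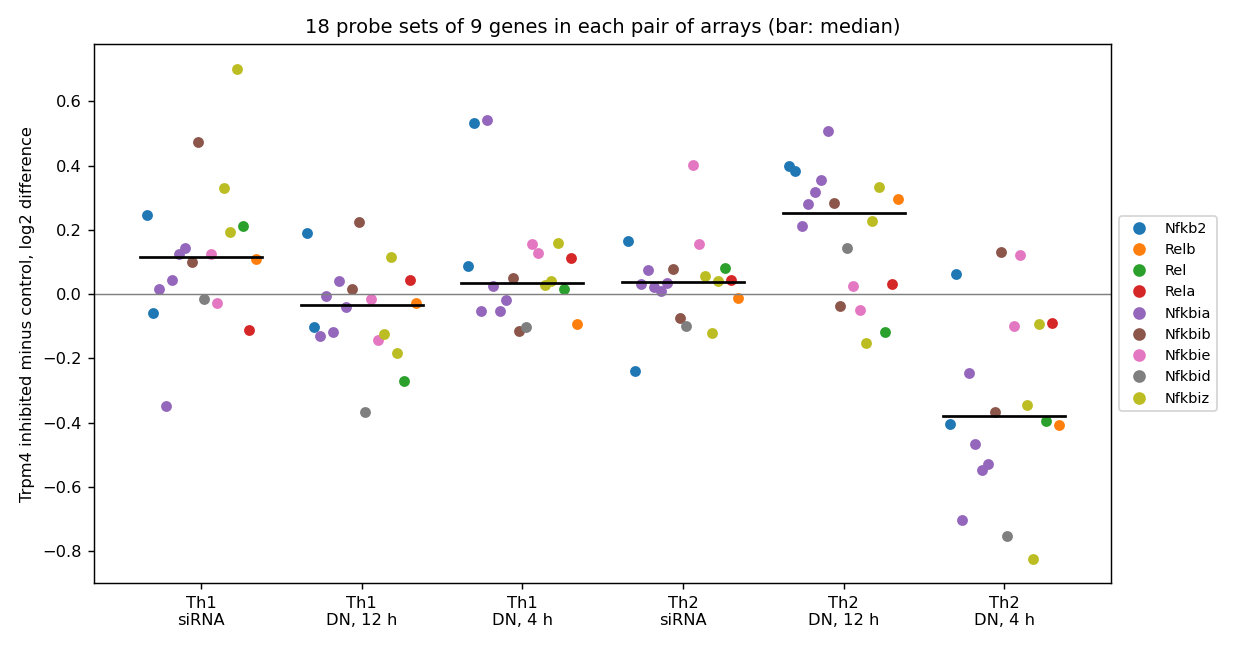
Difference on the log2 scale between the array with Trpm4 inhibited and its control, for each of the 18 member probe sets in each of 6 pairs, coloured by gene, with the median as a bar. Each point is 1 probe set in 1 pair of arrays. The medians are -0.38 in Th2 cells at 4 h and 0.25 in Th2 cells at 12 h, and lie between -0.03 and 0.12 in the other 4 pairs.

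Between cell types, subunit and inhibitor genes with higher transcript levels in Th1 cells were Nfkb2, Nfkbia, Relb and Nfkbie. Over the 7 pairs of a Th1 and a Th2 array with the same treatment, limma called 8 of 18 probe sets, all higher in Th1, in these 4 genes. Over all probe sets 9.79% were called, 3.65% higher and 6.14% lower in Th1. The median of the 18 differences was 0.53, against 0.01 for all probe sets tested. Of the 8 calls, 2 were probe sets of Nfkb2 and 4 of Nfkbia, and probe sets of 1 gene share their target.

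Nfkb2, which encodes the precursor of p52, differed most. Its main probe set (1425902_a_at) had a lowest, median and highest signal of 270.3, 666 and 974 in Th1 arrays, against 47.2, 67.7 and 464 in Th2 arrays. Every pair was higher in Th1, by 0.96 to 3.07, but the ranges overlap through the Th2 siRNA arrays. The mean difference was 2.03 ± 0.26 (SE, 7 pairs, adjusted p = 0.0016), a 4.07-fold difference. The 7 pairs fall into fewer sets (12 h, 4 h, siRNA and untreated). By set the difference was 1.004 with siRNA and 2.02 at 4 h. If arrays of a set share a culture, which the labels do not say, its pairs are not separate repeats and the SE is too small. The other probe set of Nfkb2 (1429128_x_at, a suffix that marks probes shared with other sequences) differed by 1.23 ± 0.26 (adjusted p = 0.0192). Without the DN Trpm4 pair at 12 h the second one was not called (1.08, adjusted p = 0.0534), and the main one was called without any 1 of the pairs.

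Nfkbia had 5 probe sets, which did not give the same size. The largest difference was 1.35 ± 0.19 (7 pairs, adjusted p = 0.00294) on 1448306_at, with signals of 1284, 1837 and 3036 (lowest, median, highest) in Th1 arrays and 306, 614 and 1851 in Th2 arrays. Another 3 were called at 0.69 to 1.004, and the main probe set (1420088_at) was not, at 0.42 ± 0.21 (adjusted p = 0.237). On the main probe set Th1 was below Th2 in both 12 h pairs (-0.01 and -0.35) and above it in the other 5 pairs (0.07 to 1.30). Relb, a subunit known as the partner of p52, had 146, 399 and 719 in Th1 arrays and 60.0, 245 and 331 in Th2 arrays. Its difference was 0.74 ± 0.20 (adjusted p = 0.0441), and its siRNA pairs did not share it, at -0.11 and 0.01. Nfkbie, which encodes IkappaBepsilon, was called on its second probe set (1431843_a_at) at 0.65 ± 0.15 (adjusted p = 0.0279), while its main probe set gave 0.27 ± 0.13 (adjusted p = 0.226).

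The other members did not pass. Nfkbib (IkappaBbeta) was near the threshold on its main probe set, at 0.96 ± 0.27 (adjusted p = 0.0532), but its signal was 153 to 252 on the 6 arrays with 3′ bias and 325 to 905 on the other 8, with no overlap. It was the only one of 18 to separate the kinds of array (11.8% of all probe sets were lower with 3′ bias without overlap and 11.7% higher). Overlap does not mean that the kinds read alike. The main probe set of Nfkbiz was at 769 to 1359 with 3′ bias and 74.4 to 777 without it. The medians of the main probe set of Nfkb2 were 79.4 and 565. Cell type and treatment differ between the kinds as well. Rel, which encodes c-Rel, differed by 0.09 ± 0.25, Rela by -0.31 ± 0.14, Nfkbid by 0.41 ± 0.42 and the main probe set of Nfkbiz by -0.85 ± 0.33. Each of these 4 means covers pairs of both directions.

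The kind of array and the cell type go together in the 12 h pairs. Without both 12 h pairs, 3 probe sets were called, the main one of Nfkb2 at 1.65 (adjusted p = 0.0102), its second at 0.78 (adjusted p = 0.0298) and 1448306_at of Nfkbia at 1.19 (adjusted p = 0.0305). The calls of Relb, at 0.70 (adjusted p = 0.170), of Nfkbie, at 0.50 (adjusted p = 0.133), and of the 3 smaller Nfkbia probe sets were lost. Over the 3 pairs with no retrovirus, none of whose arrays has 3′ bias, none of the 8 was called, with the main probe set of Nfkb2 at 1.40 (adjusted p = 0.127), its second at 0.94 (adjusted p = 0.0832) and 1448306_at of Nfkbia at 1.11 (adjusted p = 0.198).

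With single pairs left out, Relb was called only without either siRNA pair and was lost without any 1 of the other 5 (0.63 to 0.75). The call of Nfkbie was lost without the untreated pair, either 12 h pair or the DN Trpm4 pair at 4 h (adjusted p of 0.0538 to 0.0802). Leaving out 1 pair at a time left 3 calls without the DN Trpm4 pair at 12 h, 4 without the vector pair at 12 h or without the untreated pair, 5 without the DN Trpm4 pair at 4 h and 6 or 7 without any 1 of the others.

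Of other genes of the pathway, 18 kinases and adaptors were tested, of which 0 were higher and 1 was lower in Th1, Tbk1, at -0.59. Of 13 further regulators, Zc3h12a was higher (0.62), and N4bp1 (-1.62) and Bcl3 (-0.57), a nuclear IkappaB relative, were lower. Of 21 genes known as NF-kappaB targets in lymphocytes, 9 were higher and 2 lower, and the median of the list was 0.65 against 0.01 for all probe sets tested, of which 3.65% were called higher and 6.14% lower. The cytokine genes Lta (5.27), Il2 (3.84) and Tnf (2.02) and the growth regulator Myc (1.56) were among the higher ones, and Irf1 (-2.03) and Tnfrsf4 (-1.76) were the lower ones. Lta, Il2 and Tnf are also typical products of Th1 cells.

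The difference between cell types was not the same in every set of arrays. At 4 h of stimulation Nfkbid, Relb and the main probe set of Nfkbiz were higher in Th1 than in Th2. In the siRNA arrays Nfkbid, Nfkbiz, Rel and Rela were lower in Th1. Within each of these pairs both arrays were of 1 kind, with 3′ bias at 4 h and without it for siRNA. All 7 pairs entered 1 fit with a difference for each set, in which the single untreated pair adds nothing to the spread. At 4 h, 12 of 18 probe sets were called, all higher in Th1 (27.2% of all, 13.6% higher and 13.6% lower). With siRNA, 10 were called, 4 higher and 6 lower in Th1 (32.9% of all probe sets, 16.9% higher and 16% lower). Without the DN Trpm4 pair at 4 h the first count was 6, and without either siRNA pair the second was 7.

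Nfkbid gave the largest contrast. At 4 h its signals were 3680 and 3949 in Th1 arrays, against 1069 and 1813 in Th2 arrays, a difference of 1.44 ± 0.18 (mean of 2 pairs, SE of the fit, adjusted p = 0.000491). With siRNA they were 229 and 231 in Th1 arrays, against 663 and 711 in Th2 arrays, a difference of -1.51 ± 0.18 (adjusted p = 0.000287). In both sets the Th1 and Th2 arrays do not overlap, and they lie in opposite order. The difference between the 2 sets was 2.96 ± 0.25 (adjusted p = 9.01e-05). The SE here and in the next paragraphs comes from the 4 h, siRNA and 12 h pairs of the fit together. It does not measure the spread of the 2 pairs of a set alone.

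Nfkbiz followed on its main probe set, with 1359 and 1331 in Th1 arrays and 769 and 980 in Th2 arrays at 4 h. With siRNA its signals were 318 and 250 in Th1 arrays, against 777 and 746 in Th2 arrays. The Th1 minus Th2 differences were 0.62 ± 0.14 at 4 h (adjusted p = 0.0104) and -1.38 ± 0.14 with siRNA (adjusted p = 0.000109), and the sets differed by 2.01 ± 0.20 (adjusted p = 0.000171). Without the DN Trpm4 pair the value at 4 h was not called (0.44, adjusted p = 0.195). Another probe set of Nfkbiz, 1457404_at, lay at 0.11 ± 0.19 at 4 h and was lower in Th1 with siRNA (-1.79 ± 0.19, adjusted p = 0.000135). On 1448728_a_at the difference was 0.17 at 4 h, not called, and -0.57 with siRNA (adjusted p = 0.0481).

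The classical inhibitor genes were higher in Th1 at 4 h. Nfkbia was higher in Th1 at 4 h on 4 of its 5 probe sets, by 0.97 to 1.33, and with siRNA on 2, by 0.65 and 0.73. On the main one it had 6752 and 7002 in Th1 arrays and 2737 and 4467 in Th2 arrays at 4 h, and 4467 and 4421 in Th1 arrays and 4255 and 4162 in Th2 arrays with siRNA. The Th1 arrays at 4 h stood above all others, and without the DN Trpm4 pair that call was lost (0.65, adjusted p = 0.0871). Without the Thy1 siRNA pair neither of the siRNA calls of Nfkbia held (adjusted p = 0.231 and 0.0679). Nfkbie was higher in Th1 at 4 h on both probe sets, by 0.47 ± 0.12 and 0.55 ± 0.13, and was not called with siRNA. Nfkbib was called at 4 h on its main probe set (0.45 ± 0.14, adjusted p = 0.0426) and lay at 0.41 ± 0.14 with siRNA (adjusted p = 0.0512). Neither Nfkbie (0.47 and 0.43) nor Nfkbib (0.24) was called at 4 h without the DN Trpm4 pair.

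The subunits differed between the sets as well. Rel was not called at 4 h, with 492 and 487 in Th1 arrays and 327 and 435 in Th2 arrays (0.36 ± 0.14). With siRNA it was lower in Th1, with 216 and 184 in Th1 arrays and 424 and 400 in Th2 arrays (-0.99 ± 0.14, adjusted p = 0.000686), and the sets differed by 1.35 ± 0.20 (adjusted p = 0.00127). Relb was at 674 and 719 in Th1 arrays and 245 and 331 in Th2 arrays at 4 h, higher by 1.24 ± 0.14 (adjusted p = 0.000265). With siRNA it was at 266 and 245 in Th1 arrays and 264 and 266 in Th2 arrays, where it was not called (-0.05 ± 0.14), and the sets differed by 1.29 ± 0.20 (adjusted p = 0.00167). For Rela the Th1 minus Th2 difference was -0.16 ± 0.12 at 4 h and -0.75 ± 0.12 with siRNA (adjusted p = 0.00171). The sets differed for Rela by 0.59 ± 0.17 (adjusted p = 0.033), a call that was lost without any 1 of the 4 pairs at 4 h or with siRNA.

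Nfkb2 was higher in Th1 in both sets. At 4 h it had 288 and 270.3 in Th1 arrays and 47.2 and 67.7 in Th2 arrays (2.02 ± 0.15, adjusted p = 2.01e-05), and with siRNA 974 and 820 in Th1 arrays and 464 and 412 in Th2 arrays (1.004 ± 0.15, adjusted p = 0.00088). In each set the Th1 arrays lay above the Th2 arrays, and within each cell type the siRNA arrays lay above the 4 h arrays. On this main probe set the sets differed by 1.02 ± 0.21 (adjusted p = 0.00661), and by 0.77 without the DN Trpm4 pair at 4 h (adjusted p = 0.0528). The second probe set, 1429128_x_at, went the other way (0.54 at 4 h and 0.87 with siRNA). Its difference between the sets was -0.34 and was not called.

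In all, 11 of 18 probe sets of 7 genes differed between the sets, all with the higher Th1 minus Th2 difference at 4 h (28% of all, 14% higher and 13.9% lower). They belong to Nfkb2 (its main probe set alone), Rel, Rela, Relb, Nfkbia, Nfkbid and Nfkbiz. Without the DN Trpm4 pair at 4 h 6 of the 18 were called, and without either siRNA pair 7. The summed signal of the list for CD8 T and natural killer cells moved with the same contrast, at 3013 and 3012 in Th1 arrays and 115 and 114 in Th2 arrays at 4 h, and at 836 and 877 in Th1 arrays and 806 and 836 in Th2 arrays with siRNA. On the Th2 arrays Klrd1 was at 13.7 to 31.7, so the Th2 sums with siRNA came mostly from other genes of that list. The part of the list in the difference was not tested. Among other pathway genes, 9 of 18 kinases and adaptors had the higher difference at 4 h and 0 the lower, with the paracaspase gene Malt1 at 2.59 and the kinase gene Prkcq at 1.57. Of the 13 regulators 6 were higher and 3 lower, with the deubiquitinase gene Tnfaip3 at 1.62, and of the 21 target genes 12 were higher and 1 lower, with Ltb at 2.33 and Il2ra at -1.15. The 4 h and siRNA arrays differ in the kind of array and in treatment, and the 2 cannot be told apart between these sets.

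**Figure D3:**
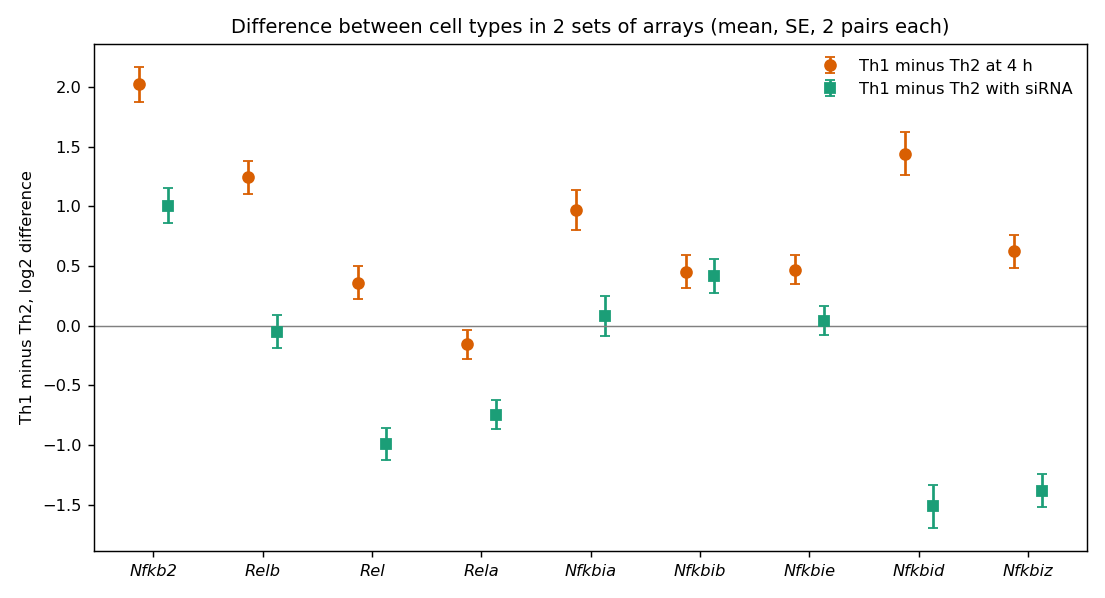
Th1 minus Th2 difference on the log2 scale for the main probe set of 9 member genes, at 4 h of stimulation (orange circles) and with siRNA (green squares), as the limma mean of 2 pairs. The SE is that of the fit, from the 4 h, siRNA and 12 h pairs together. Nfkbid lies at 1.44 at 4 h and -1.51 with siRNA, and Nfkb2 is above 0 in both sets.

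Over the time of stimulation, Nfkbid and Nfkbie transcripts were lower at 12 h than at 4 h. Over 4 pairs of retrovirus arrays of the same cell type and construct, limma called 2 of 18 probe sets, both lower at 12 h (2.01% of all probe sets called, 0.713% higher and 1.3% lower). Nfkbid had 801 and 1038 in Th1 and 378 and 341 in Th2 at 12 h, against 3680 and 3949 in Th1 and 1069 and 1813 in Th2 at 4 h (DN Trpm4, then vector). All 12 h values lay below all 4 h values, with a mean difference of -1.98 ± 0.18 (SE, 4 pairs, adjusted p = 0.0313). Nfkbie had 234 and 260.0 in Th1 and 234 and 243 in Th2 at 12 h on its main probe set, against 765 and 699 in Th1 and 546 and 501 in Th2 at 4 h. Its groups did not overlap either, with a difference of -1.29 ± 0.16 (adjusted p = 0.0362). In Th1 cells the times also differ in kind of array. Neither gene was called when any 1 of the 4 pairs was left out (-1.85 to -2.15 for Nfkbid and -1.18 to -1.39 for Nfkbie). Rela was the third of 18 whose 12 h values all lay below its 4 h values (9.12% of all probe sets did), with 957 to 1214 at 12 h and 1541 to 1846 at 4 h, and it was not called (-0.64 ± 0.13, adjusted p = 0.0622).

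In Th2 cells alone, where all 4 arrays were of 1 kind, 4 of 18 probe sets were called, all lower at 12 h (6.26% of all called, 2.68% higher and 3.58% lower). Nfkbid differed by -1.91 ± 0.22 (2 pairs, adjusted p = 0.000568) and the 2 probe sets of Nfkbie by -1.08 ± 0.19 and -0.96 ± 0.19 (adjusted p = 0.0051 and 0.00929). For Nfkbid the DN Trpm4 pair gave -1.46 and the vector pair -2.36. The fit had 1 residual degree of freedom, and its SE draws on all probe sets tested. It does not measure the spread of these 2 pairs alone. Rel had 203 and 222 at 12 h, against 327 and 435 at 4 h, a difference of -0.79 ± 0.19 (adjusted p = 0.027). With a pseudocount of 1 in place of 16 none of these 4 was called. The main probe sets of Nfkb2 (0.36 ± 0.22), Nfkbia (-0.22 ± 0.22) and Nfkbiz (-0.01 ± 0.19) did not pass. Of the other pathway genes, the cytokine genes Il2 (-2.26), Ltb (-1.48) and Tnf (-1.35) were among 7 of 21 targets lower at 12 h, and Ccl3 (1.11) and Tnfrsf9 (1.07) were the 2 higher ones. The regulators Tnfaip3 (-1.02) and Bcl3 (-0.85), 2 of 13, and the kinase Prkcq (-0.79), 1 of 18, were lower as well.

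In Th1 cells the kind of array differed between the times, and 64.3% of all probe sets were called (31.1% higher, 33.2% lower). Of the members 16 of 18 were called (11 lower, 5 higher at 12 h), and these values cannot be read as an effect of time. Nfkbid differed by -2.04 ± 0.12 and Nfkbie by -1.51 ± 0.12 there. The test of the difference between cell types did not call either (-0.14 ± 0.30 and -0.43 ± 0.20), which does not show that the cell types were alike. Nfkbiz (-1.81 in Th1), Nfkbia (-1.37), Nfkbib (1.80) and Nfkb2 (1.30) were called in that test, in which 38.2% of all probe sets passed (18.1% higher, 20.1% lower). The kind of array enters that test through the Th1 pairs.

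**Figure D4:**
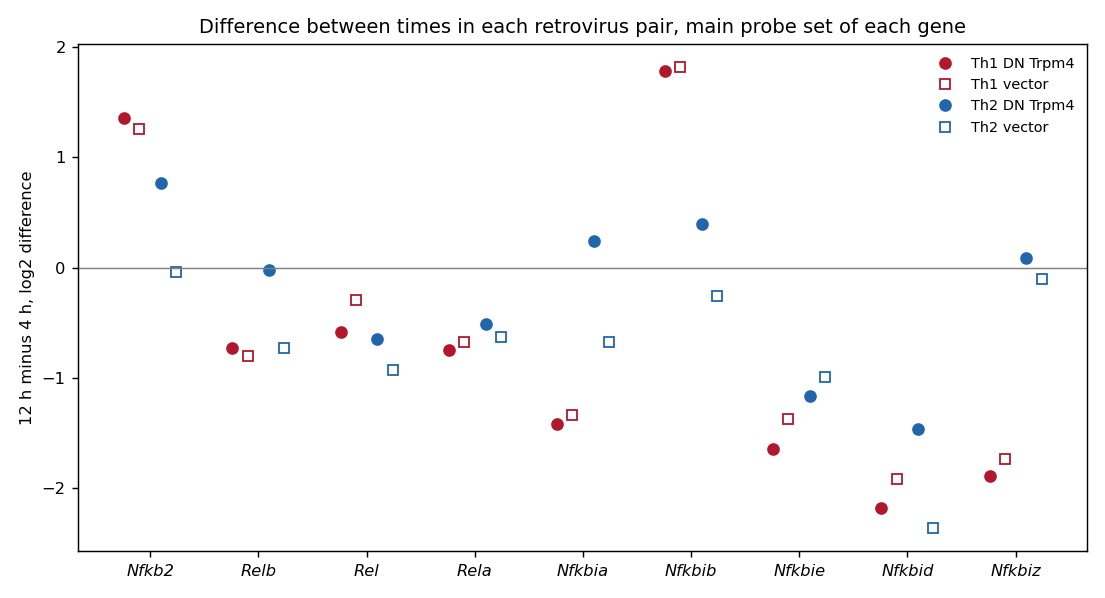
Difference on the log2 scale between 12 h and 4 h for the main probe set of each member gene, in each of the 4 retrovirus pairs, with Th1 in red and Th2 in blue, filled for DN Trpm4 and open for vector. Each point is 1 pair of arrays. All 4 points of Nfkbid, Nfkbie, Rel and Rela lie below 0, and the Th1 and Th2 points of Nfkbiz and Nfkbib lie apart.

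The siRNA arrays carried more transcript of most members than the untreated arrays, all 6 without 3′ bias. Of 18 probe sets 13 were called, 12 higher and 1 lower with siRNA, and 38.3% of all probe sets were called (21.2% higher, 17.1% lower). The labels do not say whether untreated or siRNA cells were stimulated. Marker lists moved with this contrast too. The summed signal of T cell markers was 6183 to 11418 in siRNA arrays and 17267 and 17882 in untreated Th1 and Th2 arrays. B cell markers summed to 128 to 150.1 with siRNA and 230.2 and 268 untreated, and macrophage and dendritic cell markers to 182 to 241 with siRNA and 321 and 466 untreated. The CD8 T cell and natural killer cell list stood at 836 and 877 in siRNA and 6080 in untreated Th1 arrays, and at 806 and 836 in siRNA and 342 in untreated Th2 arrays, and the part of these markers in the results was not tested.

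Nfkbia was higher on all 5 probe sets, by 1.38 to 1.85. On its main probe set it had 4467 and 4421 in Th1 and 4255 and 4162 in Th2 with siRNA (Trpm4, then Thy1), against 2503 and 1085 in untreated Th1 and Th2 cells. Rel was higher by 1.77 ± 0.33 (adjusted p = 0.0101), with 216, 184, 424 and 400 in the siRNA arrays and 88.6 and 59.4 in the untreated arrays. The siRNA and untreated arrays do not overlap for these genes. Each cell type has 1 untreated array, and the size of the difference turned on which one was used. Within Th1 and within Th2 cells it was 1.04 and 2.50 for Rel, 0.82 and 1.94 for Nfkbia, 1.40 and 2.59 for Nfkb2, 0.74 and 1.89 for Relb and 1.72 and 1.03 for Nfkbiz (log2, main probe sets). In all, 10 of 18 probe sets had every siRNA array above both untreated arrays, as did 27.1% of all probe sets.

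Relb (1.32 ± 0.27) and the main probe sets of Nfkbiz (1.37 ± 0.21), Nfkbib (0.80 ± 0.13) and Nfkbie (0.69 ± 0.20) were higher as well, with adjusted p of 0.0134, 0.00513, 0.00677 and 0.0385. Of their other probe sets, 1448728_a_at of Nfkbiz was called higher too (0.81). That call was lost without any 1 siRNA array (0.71 to 0.90), and the difference was 0.41 without the untreated Th1 array. Not called were 1457404_at of Nfkbiz (-0.07), 1446718_at of Nfkbib (0.01) and 1431843_a_at of Nfkbie (-0.10). The call of Nfkbie was lost without any 1 siRNA array (0.61 to 0.75) or the untreated Th2 array (0.33, adjusted p = 0.0787). Rela (-0.05 ± 0.23) and Nfkbid (0.91 ± 0.41, adjusted p = 0.130) did not pass. For Nfkbid the 2 cell types stood apart, with 229 and 231 in siRNA and 236 in untreated Th1 cells, and 663 and 711 in siRNA and 178 in untreated Th2 cells. The 2 probe sets of Nfkb2 went opposite ways, 1425902_a_at by 1.99 ± 0.28 (adjusted p = 0.00442) and 1429128_x_at by -0.89 ± 0.14 (adjusted p = 0.00621), and the cause was not tested. With the deposited values, not normalised further, the median of all probe sets was 0.285 against 0.04, and Rela lay at 0.44. Of the 21 target genes 11 were higher, with the chemokine genes Ccl3 (6.16) and Ccl4 (4.34) and the cytokine gene Csf2 (4.76) at the top, and Ltb (-2.67) was lower. Of 18 kinases and adaptors 5 were higher, with Map3k7 at 0.91, and 6 lower, with Ikbke (-1.50), Prkcq (-1.46) and Ikbkg (-1.35), and of 13 regulators 4 were higher and 2 lower.

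The Th1 retrovirus arrays at 12 h were set against the Th1 siRNA arrays, 2 against 2 and all without 3′ bias. Nfkbid, at 801 and 1038 with retrovirus and 229 and 231 with siRNA, was higher by 1.92 ± 0.15 (adjusted p = 0.000558). Rel (0.79 ± 0.14) and Relb (0.63 ± 0.10) were higher as well (adjusted p = 0.00769 and 0.00575), and Nfkbia was lower on its main probe set (2525 and 2765 with retrovirus, 4467 and 4421 with siRNA, -0.75 ± 0.11, adjusted p = 0.00334). In all, 12 of 18 probe sets were called, 7 higher and 5 lower, against a background of 46.2% (22.2% higher, 24% lower). Rela was among them at 0.33 ± 0.10 (adjusted p = 0.0487), but on the deposited scale it was at -0.01 (adjusted p = 0.942), where the median of all probe sets lay at -0.18 against -0.05 after quantile normalisation. Without the vector array 6 were called, without the DN Trpm4 array 7, and Rela was not called without any 1 of the 4 arrays.

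The genes whose pattern over the 14 arrays was nearest to that of each member were listed by the root mean square difference of centred log2 values, as a description among 13009 genes. The nearest to Nfkb2 were Ftsj3 (0.532), Nkg7 (0.567) and Serpinb9b (0.655), against a median of 1.47 over all genes. The nearest to Nfkbid were Irf8 (0.51), a transcription factor of the interferon regulatory family, Map3k8 (0.51), a kinase, and Slc41a1 (0.57), against a median of 1.47. Nfkbiz was followed by Atp2b1, a calcium pump of the plasma membrane, and Tab3, an adaptor of the pathway list (0.35 each, median 1.13), and Ahr (0.37). For Rel they were Ier5, Tgif2 and Casp4 (0.33 to 0.35, median 0.95), for Relb Rcl1, Spin4 and Fes (0.35 each, median 0.94), for Nfkbia Atp8b3, Gpr65 and Gabarapl1 (0.33 to 0.35, median 0.815), for Nfkbie Ptpn12, Skil and Spag9 (0.23 to 0.29, median 0.78) and for Nfkbib Ddx56, Gapdhs and Exosc2 (0.17 to 0.21, median 1.01). All points share the arrays and their kind, and Rela varied too little (SD under 0.5) to be matched.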

How the data were processed

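Expression was read from 14 Affymetrix arrays, 1 per condition. The values deposited by the authors are intensities, a linear signal for each of 45101 probe sets, and their summarisation and scaling are not given in the sources used here. RNA was extracted with Trizol and labelled with biotin, per the labels' protocols. Here the deposited intensities were quantile-normalised, and log2 values of the signal + 16 were computed from the deposited table. Control probe sets (64) were left out, and probe sets above the array median on at least 2 arrays were tested (29467, of 13118 named genes). Linear models were fitted with limma 3.58.1 in R 4.3.3 (lmFit, eBayes), with matched pairs of arrays as blocks, on all probe sets tested, and p-values were adjusted by Benjamini-Hochberg over all of them. A probe set was called at an adjusted p under 0.05. Each SE is the moderated one of eBayes, which draws on the spread of all probe sets tested. The fits of 12 h against 4 h in 1 cell type, and of Trpm4 siRNA against Thy1 siRNA, left 1 residual degree of freedom. The comparisons of cell types at 4 h and with siRNA and their difference came from 1 fit of all 7 pairs. It had 3 residual degrees of freedom, to which the single untreated pair adds nothing. The comparisons of that fit, the difference of time effects between cell types, the grouping of arrays by 3′ bias and the 1.5-fold counts of single pairs were added after seeing the data. The comparison of Th1 retrovirus at 12 h with Th1 siRNA, 2 arrays against 2, had no pair block. The fits were tested on simulated data.

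Probe sets took the gene that the platform annotation lists (34958 with 1 gene, 932 with several, 9211 with none, and 34754 found by Entrez identifier in the RefSeq gene table). The members and the lists of pathway genes and markers were chosen with earlier results of these data known. Of 22 kinases and adaptors 18 had a probe set, of 14 further regulators 13 and of 24 targets 21. The text names at most 6 called genes of a list per comparison, by the size of the difference. Alternatives tried were no further normalisation, median centring, a stricter filter (75th percentile) and none, pseudocounts of 1 and 64, other eBayes settings, no pair block, and leaving out pairs or arrays.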

Additional observations from a re-analysis of the deposited data

Results flagged for a closer look

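In 5 probe sets the difference between 12 h and 4 h was itself different in Th1 and Th2 cells (limma, difference of log2 differences, Th1 minus Th2, adjusted over all probe sets tested). The values were -1.80 for Nfkbiz (adjusted p = 0.00034), -1.16 for Nfkbia on its main probe set (adjusted p = 0.0147), 1.73 for Nfkbib (adjusted p = 0.00108) and 0.94 and 1.84 for the main and the second probe set of Nfkb2 (adjusted p = 0.0254 and 0.000979). Of all probe sets 38.2% passed this test. The call of Nfkbia was lost without the Th1 DN Trpm4 pair (-1.12, adjusted p = 0.0611), and that of the main probe set of Nfkb2 without either Th1 pair or the Th2 vector pair (0.54 to 0.996). In Th1 cells the 12 h and 4 h arrays are of different kinds (Gapdh 3′ minus 5′ near 0 and over 5 on the log2 scale), while in Th2 cells they are of 1 kind, and the kind and the time cannot be told apart there.

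In 11 probe sets the difference between Th1 and Th2 cells was not the same at 4 h of stimulation as with siRNA, and in each of them it was higher at 4 h. The differences (4 h minus siRNA) were 2.96 for Nfkbid, and 2.01 and 1.90 for the main probe set and 1457404_at of Nfkbiz. They were 1.35 for Rel, 1.29 for Relb, 0.59 for Rela and 1.02 for the main probe set of Nfkb2 (its second, not called, lay at -0.34). For Nfkbia they were 0.89 on the main probe set, 1.20 on 1438157_s_at, 0.67 on 1448306_at and 0.93 on 1449731_s_at. Of all probe sets 28% passed this test, 14% with the higher difference at 4 h. Without the DN Trpm4 pair at 4 h 6 of the 18 were called, and without either siRNA pair 7. The call of Rela was lost without any 1 of the pairs at 4 h or with siRNA. The 4 h arrays have 3′ bias and the siRNA arrays do not, so the kind of array and the treatment cannot be told apart.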

How the results depend on the processing

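The count of 0 members called for Trpm4 inhibition held under every setting run in all 6 comparisons. In their main fits none of the 29467 probe sets tested was called either, so this count does not show that the levels were equal. Of 18 probe sets, 8 were called between Th1 and Th2, against 5 with a pseudocount of 1, 1 with no pair block, 3 without both 12 h pairs, 1 over the 3 pairs with no retrovirus (none of the 8) and 3 to 7 with 1 pair left out. Between 12 h and 4 h, 2 were called, against 0 with a pseudocount of 1 and 0 with any pair left out, and in Th2 alone 4, against 2 with no filter and 0 with a pseudocount of 1. Between siRNA and untreated arrays 13 were called, against 7 with no pair block and 11 to 14 with 1 array left out. Between Th1 retrovirus at 12 h and Th1 siRNA 12 were called, against 6 to 9 with 1 array left out. For the difference of time effects the count was 5, against 9 with the filter at the 75th percentile, 3 with a pseudocount of 1, 9 with no pair block and 3 to 9 with 1 pair left out. For 4 h minus siRNA it was 11, against 7 with a pseudocount of 1 and 6 to 11 with 1 pair left out. Between cell types the count was 12 at 4 h (6 to 12 with 1 pair left out) and 10 with siRNA (7 to 11). Rela turned to -0.0115 on the deposited values between Th1 retrovirus at 12 h and Th1 siRNA, and the median of all probe sets moved by over 0.1 there, between siRNA and untreated arrays (0.285) and between 12 h and 4 h in Th1 (-0.115 against -0.012). The cause of these changes was not tested. Over 93 called results, 1 reversed its sign under an alternative. Fits of 2 pairs leave no test when a pair is left out. No paired analysis by replicate number was possible because the labels carry none, so pairs are matched conditions.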
